A study of Mus musculus with 2 samples.

Results

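The interferon-stimulated genes described here are a fixed list of 31 genes that respond to interferon in mouse tissues, of which 29 were among the 19059 genes of the deposited feature lists and 2, Mx1 and Mx2, were not analysed here. The members are a list of names with no threshold on values, drawn up with earlier results of these data known. They were measured in single cells of intact, untreated dorsal skin, from 1 punch biopsy of 6 mm and 1 library per genotype. The wildtype donor was a C57BL/6J mouse, the Eppk1-/- donor came from a knockout line crossed back to that strain, and the labels give no age for either. Eppk1 encodes epiplakin, a cytoskeletal linker of the plakin family found in epithelia. The cells were fixed and their RNA was read by pairs of probes, so that counts are unique molecular identifiers (UMIs) of probe pairs and not of sequenced transcripts. Because there was 1 library per genotype, no difference between the genotypes could be tested, and any difference given below may be that of the mouse, the biopsy or the library as well as that of the genotype, which cannot be told apart.

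The libraries held 9179 wildtype and 8811 Eppk1-/- cells, with 77638793 and 65118304 UMIs, and 8875 and 8617 cells passed the filters. Cells were assigned to types by marker genes, and 487 and 484 cells (5.49% and 5.62%) entered no type. A set of 1211 droplet barcodes occurred in both libraries. The keratinocyte gate held 5608 wildtype and 4125 Eppk1-/- cells, the fibroblast gate 1764 and 2722, and the macrophage and monocyte gate 613 and 901. The own markers of the 3 main gates were at like levels in both libraries, the summed keratinocyte markers at 53714 and 54319 CPM, that is UMIs scaled to the same total of 1000000 UMIs of the cells of that type, the fibroblast markers at 89756 and 89068 CPM and the macrophage markers at 26717 and 24403 CPM. Cells near the limit of their gate made up 1.14% and 1.28% of keratinocytes, 1.93% and 1.18% of fibroblasts and 4.40% and 2.77% of macrophages. Eppk1 itself was detected in keratinocytes at 2997 CPM in wildtype and at 777 CPM in knockout skin, a log2 ratio of -1.95 (-1.97 to -1.93), so probe signal for Eppk1 remained in the knockout but was lower, as the labels have it.

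Cells release type I interferons, above all interferon-alpha and interferon-beta, when they sense foreign or misplaced nucleic acid. The receptor passes the signal through Janus kinases to a complex that holds Stat2 and Irf9 and binds the interferon-stimulated response element in the promoters of many genes. Interferon-gamma acts on the gamma-activated site, and keratinocytes, fibroblasts and macrophages of the skin can all respond to both kinds of interferon. The listed genes cover the factors of this relay (Stat2, Irf9, Irf7, Irf1), effectors that block virus replication (the Ifit and Oas families, Rsad2, Bst2, Ifitm3), sensors of nucleic acid (Ifih1, Ddx58, Zbp1, Eif2ak2), interferon-inducible GTPases (Gbp2, Gbp3) and regulators of the response (Isg15, Usp18).

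The response element was searched for as GAAANNGAAA on both strands in the RefSeq promoter windows of GRCm38.p6, which run from 250 bases before to 50 bases after the start of each gene. Promoters were available for 24 of the 29 members. The element occurred in 15 of these 24 (62.5%) and in 3.44% of all 32851 windows, and in 11 of the 24 it lay before the gene start. The gamma-activated site, searched for as TTCNNNGAA and thus able to lie in other windows than the first motif, occurred in 6 of 24 members, Irf1 among them, and in 8.30% of all windows. For both motifs the members were counted by gene, over 28 windows for the 24, and the background by window. The shares of members and of windows are therefore unlike measures. The stretches below are those around the elements in the promoters of 6 members with large differences between the libraries in fibroblasts. They are a selection, as Oas1a, Oas3, Gbp2, Gbp3, Ifih1 and Stat2 also held the element and differed there but are not shown. Ddx58, Ifitm3 and Eif2ak2 held it with smaller differences. Irf7 (-1.63), Ifi44 (-1.89) and Oasl2 (-1.09) differed there with no match in their windows. Whether the element went with the difference was not tested. Capitals mark the matches to the element on either strand.
Isg15, chr4:156200860-156200911, minus strand: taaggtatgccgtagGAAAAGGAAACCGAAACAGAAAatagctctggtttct
Ifit1, chr19:34640770-34640828, plus strand: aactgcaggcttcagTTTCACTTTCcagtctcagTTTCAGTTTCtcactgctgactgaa
Ifit3, chr19:34583358-34583431, plus strand: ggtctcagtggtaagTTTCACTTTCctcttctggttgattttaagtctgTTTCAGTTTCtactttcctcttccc
Ifit3b, chr19:34607754-34607827, plus strand: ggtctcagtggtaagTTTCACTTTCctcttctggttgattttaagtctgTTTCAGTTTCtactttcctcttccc
Rsad2, chr12:26456548-26456587, minus strand: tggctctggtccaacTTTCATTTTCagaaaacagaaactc
Bst2, chr8:71537572-71537617, minus strand: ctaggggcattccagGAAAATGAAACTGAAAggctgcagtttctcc

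The stretches of Ifit3 and Ifit3b were the same in 74 of 74 bases, and the paired genes lie in a cluster of 4 Ifit members that spans 99.3 kb (chr19:34550694-34650009, GENCODE annotation of GRCm38). Since these genes are near-identical copies, a probe of one may read the other, and their separate counts are uncertain. Rsad2 and Cmpk2 are neighbours within 37.1 kb on chromosome 12, the Oas1a, Oas2 and Oas3 genes lie within 177 kb on chromosome 5, and Gbp2 and Gbp3 lie within 78.0 kb on chromosome 3. A match to the motif describes the sequence and does not show that a factor bound there.

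The level of the members was not shared across cell types. Summed over the 29 members, macrophages and monocytes carried 11737 CPM (95% Poisson interval 11642 to 11832) in wildtype and 6850 CPM (6770 to 6930) in knockout skin. Fibroblasts followed with 6030 CPM (5988 to 6072) and 3679 CPM (3650 to 3707). Keratinocytes carried 841 CPM (832 to 851) and 757 CPM (746 to 768). These intervals cover counting error only, as do all intervals given here.

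Of the 7 types compared, macrophages held the highest level of 25 of the 29 members in the wildtype and of 23 in the knockout library. In the wildtype the exceptions were Irf1 and Gbp2, highest in fibroblasts, Irf9 in mast cells (105 CPM, 54.2 to 183, from 12 UMIs) and Stat2 in Langerhans and dendritic cells (128 CPM, 88.9 to 179, from 34 UMIs), whose intervals both held the macrophage level. Mast cells (1293 and 1866 CPM) and T and NK lymphocytes (1010 and 1030 CPM) ranked after fibroblasts in both libraries, with intervals that overlapped in the wildtype. Langerhans and dendritic cells stood at 627 and 899 CPM, below keratinocytes in the wildtype and above them in the knockout library. With Irf1 and Ifitm3 set aside they were above keratinocytes in both libraries, 495 and 512 CPM beside 263 and 181 CPM. Sebocytes had the lowest sums, 173 and 129 CPM.

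**Figure D1:**
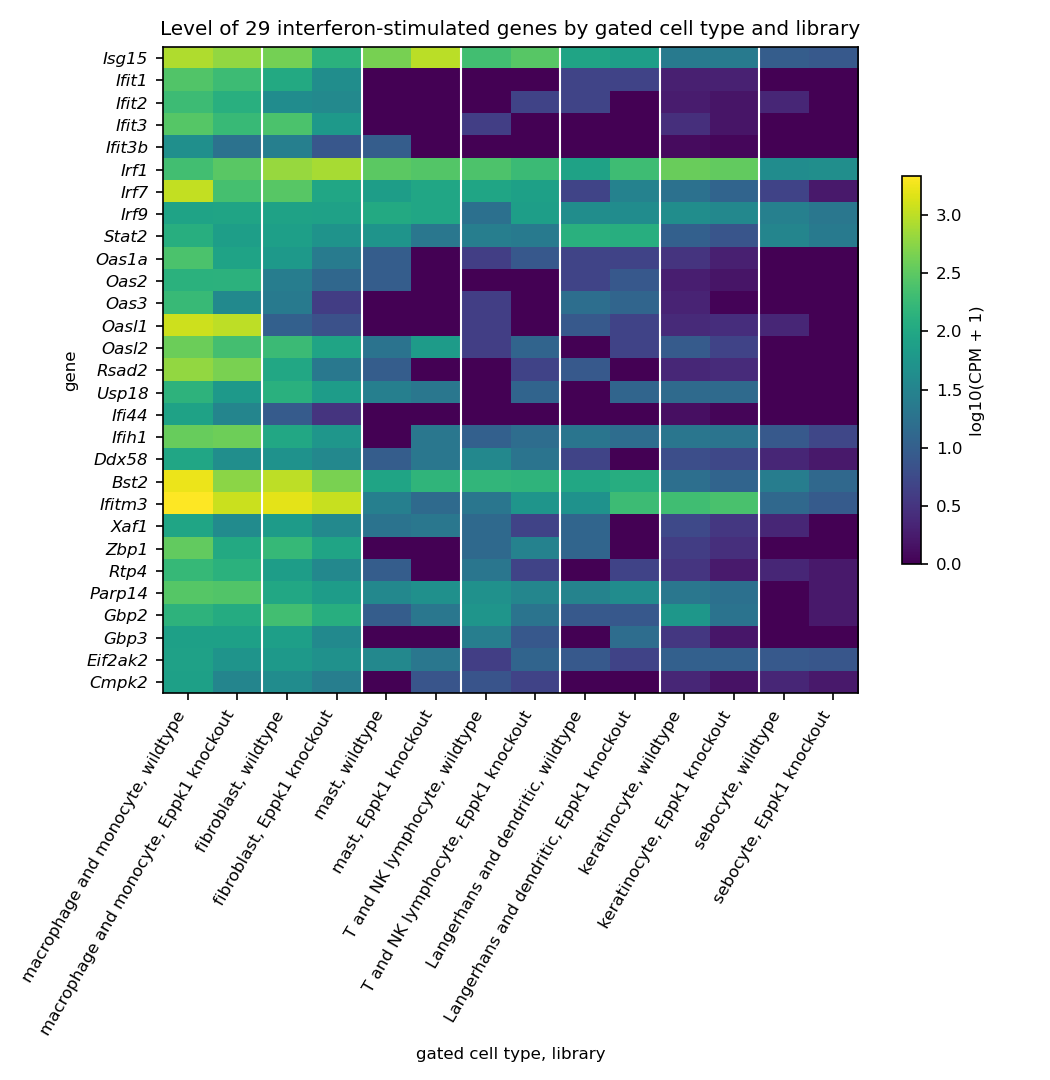
Level of each of the 29 members (rows) in the 7 cell types of each library (columns), as log10 of CPM plus 1. The macrophage columns are brightest for most members, Irf1 and Ifitm3 are the bright rows of the keratinocyte columns, and Oasl1 is bright in macrophages (1208 and 1002 CPM) and dark in fibroblasts (9.40 and 5.63 CPM).

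Probe counts do not allow levels of different genes to be compared, so each member was compared with itself across types. The median ratio of the macrophage level over the keratinocyte level was 61.0 in the wildtype, running from 0.566 for Irf1 to 827 for Oasl1, an Oas-like protein that damps translation of Irf7. In the knockout library the median was 56.0. The fibroblast over keratinocyte ratio had a median of 19.6 in the wildtype, with Ifit3 highest at 135, and of 14.7 in the knockout library. Wildtype keratinocytes had Oasl1 at 1.46 CPM and Ifit3 at 1.81 CPM. RNA carried over from fibroblasts and macrophages, as estimated below, would come to 3.24 and 1.72 CPM, so both extremes are uncertain. Macrophages and fibroblasts were closer to each other, with median ratios of 1.97 and 2.45. Oasl1 was again apart, at 1208 CPM in wildtype macrophages and 9.40 CPM in wildtype fibroblasts.

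In fibroblasts the members were lower in the knockout library as a group. All 29 members had at least 50 UMIs over both libraries, and 23 of them were lower by a log2 ratio of at least 0.5, where 7.04% of the 11661 genes measured in fibroblasts were. No member was higher by that size, while 8.85% of all genes were. The median log2 ratio of the members was -0.97, beside 0.06 for all genes, and 28 of the 29 members were below 0. The summed level was 1.64-fold higher in the wildtype, a log2 ratio of -0.71 (-0.73 to -0.70), or -0.49 with every cell weighted alike.

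Among the regulators, Isg15, a ubiquitin-like tag, stood at 438 CPM (427 to 449) in wildtype and 134 CPM (128 to 139) in knockout fibroblasts, a log2 ratio of -1.71 (-1.78 to -1.64). Usp18, the protease that removes Isg15 from proteins and restrains the receptor, stood at 129 and 68.0 CPM (-0.93, -1.03 to -0.82). The intervals of both libraries were separate for either gene. In the Ifit family, whose proteins hold back translation of foreign RNA, Ifit1 stood at 104 and 42.5 CPM (-1.28), Ifit3 at 245 and 60.2 CPM (-2.02) and Ifit3b at 26.5 and 7.07 CPM (-1.90). Ifit2 differed least in this family, with 40.7 CPM (37.3 to 44.2) and 36.2 CPM (33.4 to 39.2), intervals that overlapped.

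The Oas genes make oligoadenylates that switch on RNase L. Oas3 had the largest difference of all members in fibroblasts, 22.3 and 3.05 CPM, a log2 ratio of -2.86 (-3.32 to -2.44) from 296 and 53 UMIs. Oas1a stood at 62.2 and 23.5 CPM (-1.41) and Oas2 at 24.8 and 11.8 CPM (-1.07). Oasl2 followed with 184 and 86.6 CPM (-1.09). All 4 were lower in the knockout library with separate intervals. Rsad2, or viperin, which makes a nucleotide that ends RNA chains, stood at 98.6 and 20.8 CPM (-2.24, -2.42 to -2.08), and Cmpk2, the nucleotide kinase beside it, at 40.7 and 25.5 CPM (-0.68).

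Of the membrane proteins, Bst2 (tetherin, which holds budding viruses at the cell surface) stood at 1010 CPM in wildtype and 462 CPM in knockout fibroblasts, a log2 ratio of -1.13 (-1.17 to -1.09). Ifitm3, which blocks virus entry, differed less, with 1568 and 1147 CPM (-0.45). The sensors were lower to differing extents, Ifih1 (the RNA sensor of the RIG-I family) at 99.3 and 54.8 CPM (-0.86), Zbp1, which senses Z-form nucleic acid, at 169 and 86.4 CPM (-0.97), Ddx58 (RIG-I) at 49.3 and 34.9 CPM (-0.50, just short of the limit before rounding) and Eif2ak2, the RNA-activated kinase PKR, at 62.2 and 47.2 CPM (-0.40). Gbp2 stood at 209 and 121 CPM (-0.79) and Gbp3 at 75.5 and 36.9 CPM (-1.03). Ifi44, Xaf1, Rtp4 and Parp14 gave log2 ratios of -1.89, -0.90, -1.02 and -0.54.

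The transcription factors did not move as one. Irf7, which carries the second wave of type I interferon production, stood at 291 and 93.9 CPM (-1.63, -1.72 to -1.55), and Stat2 had 1004 and 870 UMIs (-0.59). Irf9, its partner, was at 83.0 CPM (78.2 to 88.0) and 79.7 CPM (75.5 to 84.0), with overlapping intervals. Irf1, a factor induced by interferon-gamma and by many other signals, was at 668 and 799 CPM (0.26), the one member above 0. Irf1 and Ifitm3 made up 37.1% of the summed level in wildtype and 52.9% in knockout fibroblasts. With both set aside, a choice made after their values were seen, the other 27 members summed to 3793 and 1732 CPM, a log2 ratio of -1.13.

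RNA of other cell types in the fibroblast gate did not all move one way between the libraries. Macrophage markers summed to 80.8 CPM in wildtype and 93.4 CPM in knockout fibroblasts. Keratinocyte markers summed to 1115 and 815 CPM and T and NK lymphocyte markers to 32.9 and 15.2 CPM. Median depth was 6847.5 and 6152 UMIs per fibroblast, and the part of these values in the difference of the members was not tested.

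**Figure D2:**
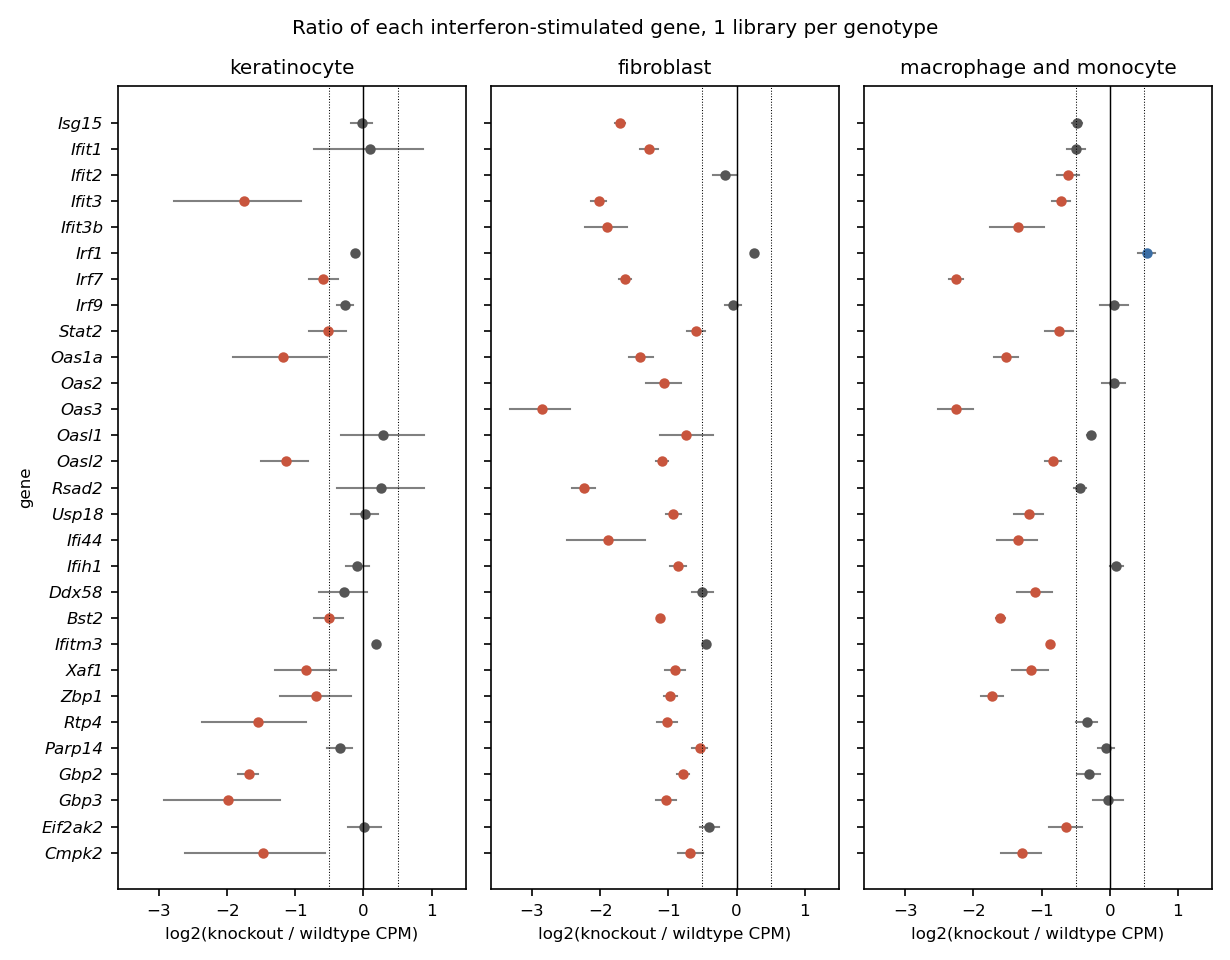
Log2 ratio of knockout over wildtype level for each member in keratinocytes, fibroblasts and macrophages and monocytes, with 95% counting intervals and dotted lines at -0.5 and 0.5, red points below and blue points above them. Members under 50 UMIs in a type are left out. In fibroblasts 28 of 29 members lie below 0 (median -0.97), and Irf1 lies above 0 in fibroblasts (0.26) and macrophages (0.54).

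In macrophages and monocytes 17 of the 29 members were lower by at least 0.5, where 18.1% of the 9188 genes measured in these cells were, and 1 member, Irf1, was higher, where 6.45% of all genes were. The median of the members was -0.71 and that of all genes -0.12. The summed level gave a log2 ratio of -0.78 (-0.80 to -0.76). Centring on the median of all genes brought this to -0.65.

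Irf7 stood out here, with 1069 CPM (1041 to 1099) in wildtype and 225 CPM (211 to 240) in knockout macrophages, a log2 ratio of -2.25 (-2.35 to -2.15). Oas3 was close to it at 177 and 36.9 CPM (-2.26), and Oas1a stood at 244 and 85.0 CPM (-1.52). Bst2 stood at 1737 and 570 CPM (-1.61) and Zbp1 at 341 and 104 CPM (-1.72). The intervals of the libraries were far apart for each of these 5 genes. Ifitm3, the most counted member, stood at 2157 and 1180 CPM (-0.87), Cmpk2 at 77.5 and 31.6 CPM (-1.29) and Usp18 at 140 and 61.4 CPM (-1.18).

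Other members hardly differed in macrophages. Ifih1 was at 366 CPM (349 to 383) and 390 CPM (371 to 409), Oas2 at 133 and 138 CPM, Parp14 at 282 and 271 CPM, Gbp3 at 78.1 and 77.1 CPM and Irf9 at 85.0 and 88.6 CPM, all with overlapping intervals. Isg15 (864 and 617 CPM), Ifit1 (267 and 190 CPM) and Rsad2 (612 and 453 CPM) were lower by 0.48, 0.49 and 0.44 on the log2 scale, less than in fibroblasts. Irf1 was at 210 and 305 CPM (0.54, 0.42 to 0.66), but with every cell weighted alike its ratio was 0.27. Median depth was 7217 UMIs per wildtype and 4709 UMIs per knockout macrophage, and its part in these differences was not tested. With each cell thinned to 2000 UMIs the summed ratio was -0.64.

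In keratinocytes 24 members reached 50 UMIs, and 12 of these were lower by at least 0.5 in the knockout library, where 5.48% of 11853 genes were. None was higher by that size, where 2.71% of genes were. The median was -0.43, beside -0.03 for all genes, or -0.24 thinned to 2000 UMIs and -0.27 with a stricter gate, while the summed level differed by only -0.15 (-0.18 to -0.13). The sum was mostly Irf1 and Ifitm3, which made up 68.8% of it in wildtype and 76.1% in knockout keratinocytes. Irf1 was at 371 and 340 CPM (-0.13) and Ifitm3 at 207 and 236 CPM (0.19), and the other 27 members summed to 263 and 181 CPM (-0.54). With cells thinned to 2000 UMIs 6 members were lower by at least 0.5, and with a stricter gate 7.

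The GTPase Gbp2 held the best counted of these differences, with 2093 wildtype and 438 knockout UMIs. It stood at 56.6 and 17.6 CPM, a log2 ratio of -1.68 (-1.84 to -1.54). Gbp3 stood at 2.46 and 0.603 CPM (-1.99), Oasl2 at 8.19 and 3.70 CPM (-1.14) and Irf7 at 16.6 and 11.0 CPM (-0.59). Stat2 at 9.41 and 6.55 CPM (-0.52), Bst2 at 15.6 and 10.9 CPM (-0.51) and Xaf1 at 4.41 and 2.45 CPM (-0.84) were lower as well. Ifit3, Rtp4, Oas1a, Zbp1 and Cmpk2 were past the limit too, each from at most 111 UMIs in the wildtype. Isg15 did not differ beyond counting error, at 22.3 CPM (20.8 to 23.9) and 22.0 CPM (20.2 to 23.9), nor did Usp18 at 13.1 and 13.3 CPM. Ifit2, Ifit3b, Oas2, Oas3 and Ifi44 stayed under 50 UMIs, with 42 wildtype and 2 knockout UMIs of Oas3.

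At such low levels RNA carried over from other cells can matter. Fibroblast markers in keratinocytes summed to 352 and 393 CPM, 0.392% and 0.441% of their level in fibroblasts, and the C1q genes to 38.8 and 15.8 CPM, 0.265% and 0.140% of their level in macrophages. Taking these shares of the members' fibroblast and macrophage levels as the carried part, 17 of 29 members in each library had a keratinocyte level above 3 times that part. Of the 12 lower members, Irf7, Stat2, Oasl2, Xaf1 and Gbp2 were above it in both libraries, 6 in 1 library and Ifit3 in neither. The 10 macrophage markers gave larger shares than the C1q genes, 0.361% in wildtype and 0.303% in knockout keratinocytes. A larger share raises the carried part, and how many members would then lie above it was not tested. The carried part of the other differences was not tested.

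By stage of keratinocyte differentiation, the summed level was highest in basal cells, 1390 CPM (1371 to 1409) in the wildtype and 1282 CPM (1260 to 1304) in the knockout library, and lower in spinous cells, 310 and 253 CPM. Cells of the upper hair follicle (900 and 881 CPM) and of the bulge and outer sheath (863 and 812 CPM, from 55 and 20 cells) lay between these stages. Granular cells, 56 and 51 in number, summed to 324 and 139 CPM, of which Isg15 gave 64 wildtype UMIs and 1 knockout UMI. The log2 ratios of the sums were -0.12 in basal, -0.29 in spinous and -1.22 in granular cells. They were -0.03 (-0.14 to 0.07) in the upper follicle and -0.08 (-0.57 to 0.36) in the bulge and outer sheath. Irf1 and Ifitm3 made up 75.8% and 82.3% of the basal and 7.06% and 12.7% of the granular sum. Without them the sums were 337 and 226 CPM in basal, 176 and 121 CPM in spinous and 301 and 121 CPM in granular cells. The upper follicle then stood at 303 and 269 CPM and the bulge and outer sheath at 277 and 505 CPM. Irf7 stood at 127 and 83.9 CPM in granular and at 11.9 and 8.22 CPM in basal cells. Without Irf1 and Ifitm3 the ratios were -0.57 in basal, -0.54 in spinous and -1.31 in granular cells. On this measure the upper follicle was at -0.17 (-0.36 to 0.02). The bulge and outer sheath, with 20 knockout cells, went the other way at 0.88 (0.21 to 1.48). The ratios of the full sums ran from -0.11 to -0.60 in spinous and from -0.57 to -2.15 in granular cells under other settings. Gbp2 was lower in basal cells (98.6 and 22.9 CPM, -2.10), spinous cells (19.1 and 8.53 CPM, -1.16) and the upper follicle (68.8 and 36.8 CPM, -0.89). Oasl2 was at 5.69 and 0.640 CPM in spinous cells (-3.05, from 81 and 6 UMIs) and at 12.5 and 6.50 CPM in basal cells (-0.94). The C1q genes of macrophages summed to 64.0 and 14.8 CPM in spinous cells (-2.11). The part of carried RNA in the ratios by stage was not tested. Isg15 was at 22.6 CPM in wildtype and 27.3 CPM in knockout basal cells (0.27, 0.04 to 0.50).

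Across the 3 main types, 9 members were lower by at least 0.5 in each: Ifit3, Irf7, Stat2, Oas1a, Oasl2, Bst2, Xaf1, Zbp1 and Cmpk2. Of the 8700 genes counted in all 3 types 0.494% were. Of the 9, Irf7, Stat2, Oasl2 and Xaf1 had keratinocyte levels above 3 times the carried part in both libraries. Oas1a, Bst2, Zbp1 and Cmpk2 were above it in a single library and Ifit3 in neither. For these 5 members the part of carried RNA in the overlap was not tested. Under other settings some of the 9 fell short of the limit. In keratinocytes these were Stat2 (-0.43), Bst2 (-0.24) and Zbp1 (-0.37) with a stricter gate and Irf7 (-0.47) with cells weighted alike. In fibroblasts they were Stat2 (-0.44) and Cmpk2 (-0.46) with cells weighted alike and Xaf1 (-0.40) thinned to 2000 UMIs. In macrophages Ifit3 was at -0.33 with subset shares fixed. Irf1 and Irf9 were lower by at least 0.5 in none of the 3 types. Fibroblasts and macrophages had 13 lower members in common, where 2.18% of the 8842 genes counted in both were. Another 10 were lower in fibroblasts but not in macrophages by this limit, where 3.14% of genes were. Ifit2, Ddx58, Ifitm3 and Eif2ak2 were lower in macrophages but not in fibroblasts by this limit. These are 4 of 29 members, no larger a share than the 15.5% of all genes. Their fibroblast ratios were below 0 as well (-0.17, -0.50, -0.45 and -0.40). Whether a member's ratio differed between types was not tested.

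Single cells differed in how many members they carried. After thinning each cell to 2000 UMIs, which left out 144 wildtype and 210 knockout fibroblasts below that depth, 40.8% (38.4 to 43.2%) of wildtype and 29.0% (27.3 to 30.8%) of knockout fibroblasts carried at least 5 of the 29 members (exact Clopper-Pearson intervals). This order was not kept at greater depth. The cells left out differ between these settings, and the part of depth and of the mix of cells was not tested. Thinned to 4000 UMIs the shares were 59.4% and 59.5%, and without thinning 62.9% and 65.2%, at median depths of 6847.5 and 6152 UMIs. In macrophages 66.3% (62.0 to 70.3%) and 56.0% (52.3 to 59.6%) of cells carried at least 5 members at 2000 UMIs, 84.3% and 79.9% at 4000, and 85.2% and 76.2% without thinning. In keratinocytes the shares were 1.46% and 0.610%, or 7.17% and 4.90% without thinning. No sebocyte reached 5 members at 2000 UMIs, 0 of 51 and 0 of 77, where 3 cells would be a share of 5.88% and 3.90% and the exact upper limits are 6.98% and 4.68%, and 3.77% and 2.53% of sebocytes did without thinning at medians of 13099 and 18367 UMIs. Cells with no member made up 35.0% and 36.4% of keratinocytes and 2.04% and 1.55% of fibroblasts.

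**Figure D3:**
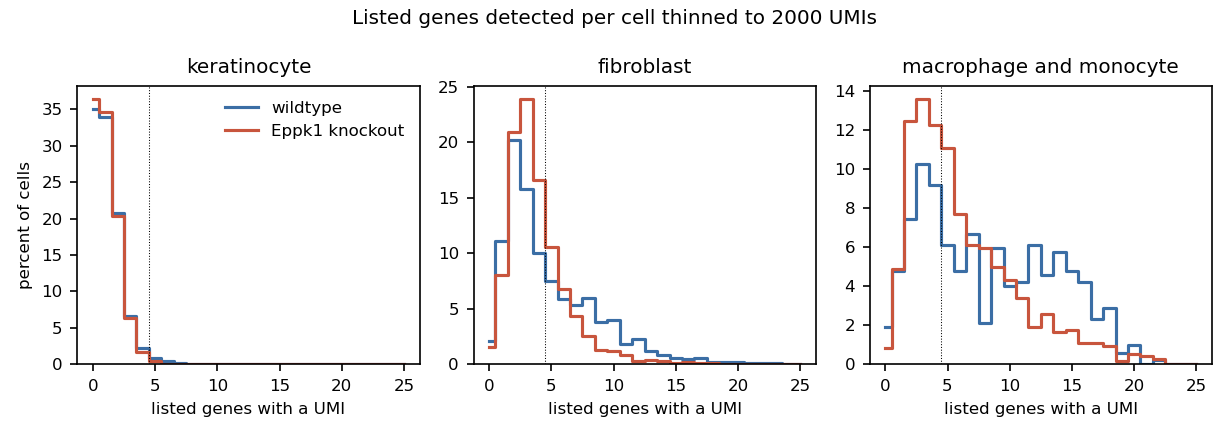
Percent of cells (vertical axis) by the number of members with a UMI after thinning to 2000 UMIs (horizontal axis), with 1 line per library in each main type and a dotted line at the limit of 5 members. To the right of it lie 40.8% of wildtype and 29.0% of knockout fibroblasts, an order not kept at 4000 UMIs.

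Fibroblasts and macrophages are mixtures, and subsets were gated by marker genes taken from the names of cell groups in these data, a step chosen after the data were seen. Fibroblasts marked by Pla1a had the highest summed level of the 4 fibroblast subsets, 9435 CPM in wildtype and 4297 CPM in knockout skin, a log2 ratio of -1.13 (-1.15 to -1.12). They made up 34.7% of wildtype and 46.0% of knockout fibroblasts. Here 26 of 29 members were lower by at least 0.5, where 9.98% of genes were, and none was higher, where 14.6% were. Isg15 stood at 830 and 191 CPM (-2.12), Ifit3 at 446 and 76.0 CPM (-2.55), Rsad2 at 200 and 30.9 CPM (-2.69) and Oas3 at 42.3 and 4.39 CPM (-3.25). Each of these 4 ratios was farther from 0 than the one over all fibroblasts. Irf1 was again on the other side, at 545 and 625 CPM (0.20). Macrophage markers in this subset summed to 58.0 and 59.3 CPM.

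Fibroblasts marked by Angpt4 had sums of 5617 and 3492 CPM (-0.69), with Isg15 at 329 and 128 CPM (-1.36). Fibroblasts marked by Tnmd had sums of 2885 and 2851 CPM (-0.02) that did not differ beyond counting error, but 1229 and 890 CPM (-0.47) with Irf1 and Ifitm3 set aside. Within them Oasl2 (63.5 and 29.1 CPM, -1.12) and Gbp2 (214 and 125 CPM, -0.78) were lower, and Irf1 was at 814 and 1132 CPM (0.48). Fibroblasts marked by Cpz had the lowest sum in both libraries and a higher one in the knockout, 2236 and 2707 CPM (0.28, 0.22 to 0.33). That difference lay in Irf1 and Ifitm3, since the other 27 members summed to 657 and 655 CPM. Of 19 members counted there 3 were lower, where 11.7% of genes were, and 4 were higher, where 5.58% were. Bst2 stood at 53.0 and 103 CPM (0.96) and Irf9 at 20.7 and 42.1 CPM (1.02), while Irf7 stood at 19.1 and 10.9 CPM (-0.79).

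Macrophages marked by Lyve1, a receptor for hyaluronan on resident macrophages, had sums of 16373 and 9786 CPM (-0.74, -0.77 to -0.71). Of 29 members 18 were lower, where 24.7% of genes were, and Irf1 was higher, where 9.95% were. Irf7 stood at 1588 and 378 CPM (-2.07), Bst2 at 2490 and 914 CPM (-1.44) and Oas1a at 339 and 107 CPM (-1.65), while Irf1 stood at 153 and 374 CPM (1.29). Median depth in this subset was 10818 and 4785 UMIs, and with cells thinned to 2000 UMIs the summed ratio was -0.75. The subset made up 45.0% of wildtype and 28.7% of knockout macrophages.

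The macrophages marked by Ccl8, a chemokine gene that interferon can induce, went the other way, with sums of 3575 CPM (3465 to 3688) and 4787 CPM (4685 to 4891) and a log2 ratio of 0.42 (0.37 to 0.48), or 0.47 with Irf1 and Ifitm3 set aside. Of 27 members 10 were higher, where 6.50% of genes were, and 1 was lower, where 13.6% were. Ifit1 stood at 18.8 and 68.8 CPM (1.84), Ifit2 at 15.2 and 59.0 CPM (1.92) and Ifit3 at 25.1 and 98.6 CPM (1.95). Usp18 (1.43), Ifih1 (1.27) and Rsad2 (0.94) were higher in the knockout library as well, and Gbp2, at 192 and 83.7 CPM (-1.20), was the lower one. Thinned to 2000 UMIs the summed ratio was 0.27. The subset made up 30.3% and 43.6% of macrophages, and Ccl8, one of its gate genes, was at 6749 and 4616 CPM in it, with summed keratinocyte markers at 2037 and 990 CPM. Cells marked by Il1b had sums of 5344 and 2727 CPM (-0.97), with Irf7 at 453 and 43.4 CPM (-3.35) and Isg15 at 504 and 519 CPM (0.04).

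With the subsets weighted by their wildtype shares, the summed log2 ratio was -0.80 in fibroblasts and -0.63 in macrophages. The share of the Pla1a subset was higher in the knockout library while its level was lower, and the share of the Lyve1 subset, which had the highest level, was lower there.

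**Figure D4:**
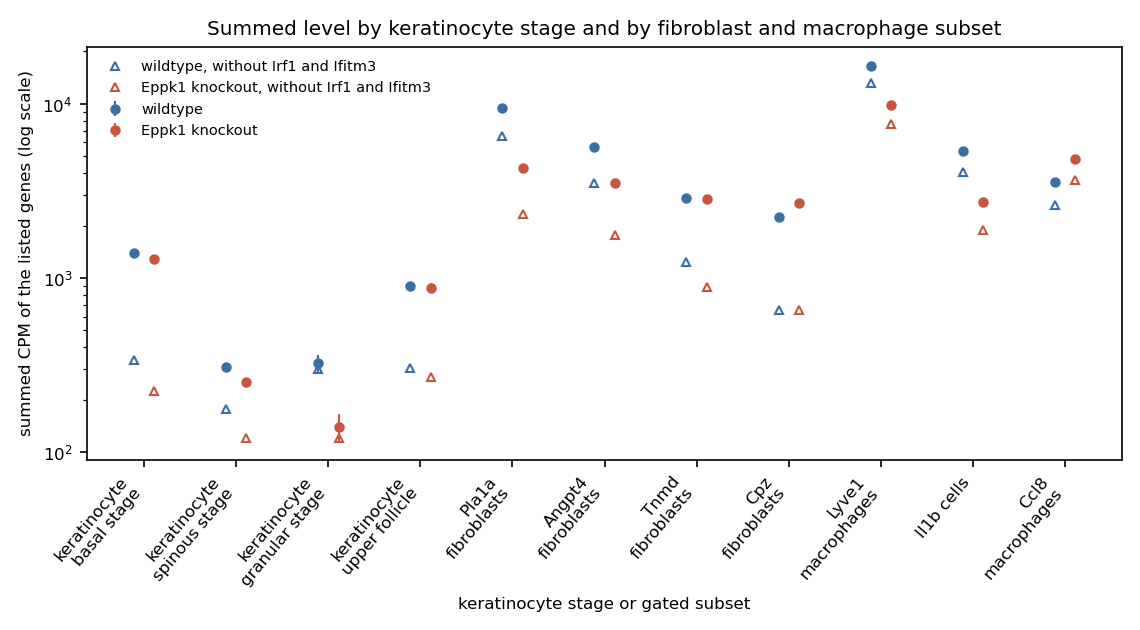
Summed level of the members in CPM (logarithmic axis) by keratinocyte stage and by fibroblast and macrophage subset, with 1 filled point per library, its 95% Poisson interval, and an open triangle for the sum without Irf1 and Ifitm3. The wildtype is higher in Pla1a fibroblasts (9435 against 4297 CPM) and Lyve1 macrophages (16373 against 9786 CPM), and the knockout library in Cpz fibroblasts (2707 against 2236 CPM) and Ccl8 macrophages (4787 against 3575 CPM).

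**Figure D5:**
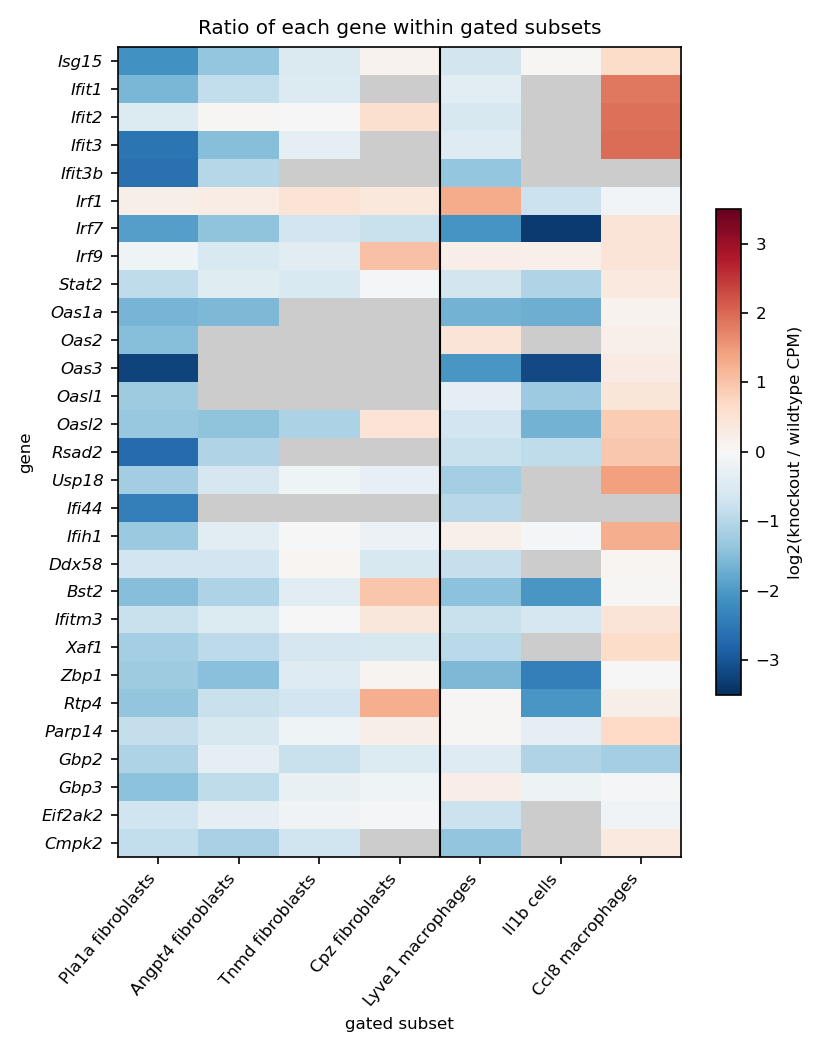
Log2 ratio of knockout over wildtype level for each member (rows) in each fibroblast and macrophage subset (columns), grey where a member had too few UMIs. Pla1a fibroblasts hold 26 lower and no higher members, Ccl8 macrophages 10 higher and 1 lower, and Irf1 in Lyve1 macrophages is at 1.29.

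In the small types few members could be counted. Mast cells, 49 and 61 in number, had a summed log2 ratio of 0.53 (0.24 to 0.83), of which Isg15 gave most, at 446 and 983 CPM (1.13, 0.67 to 1.63). The sum ran from 0.16, without droplet barcodes found in both libraries, to 0.59 under other settings. Langerhans and dendritic cells, 57 and 52 in number, had a ratio of 0.52 (0.23 to 0.81), with Ifitm3 at 49.1 and 192 CPM (1.92) and Irf1 at 83.1 and 195 CPM (1.21). Without Irf1 and Ifitm3 the sums were 495 and 512 CPM (0.05, -0.31 to 0.40). With a looser gate the ratio of the full sums was 0.11 and with a stricter one 1.34, and 31.6% and 19.2% of these cells lay near the limit of the gate. The gate's own 10 markers summed to 14520 and 9375 CPM (-0.63) and macrophage markers in it to 1473 and 1706 CPM, and the part of these values in the ratio was not tested. T and NK lymphocytes did not differ beyond counting error (0.03, -0.21 to 0.26). Langerhans and dendritic markers in the lymphocyte gate summed to 41.7 CPM in wildtype and 910 CPM in knockout skin, and their part in this ratio was not tested.

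Of the interferons themselves, 8 of 10 listed ligands were among the genes measured, and in each main type 1 of them reached 50 UMIs. Ifnb1, interferon-beta, stood at 10.00 CPM in wildtype and 2.99 CPM in knockout fibroblasts (-1.73, -2.23 to -1.27). In macrophages it stood at 21.7 and 38.8 CPM (0.83), on the other side from most members. Ifnk, the interferon of keratinocytes, stood at 5.41 and 10.6 CPM in keratinocytes (0.97, 0.70 to 1.24). Ifng, interferon-gamma, had 0 wildtype and 13 knockout UMIs in keratinocytes, 1 and 17 in fibroblasts and 0 and 2 in macrophages, too few for a ratio.

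Ifnb1 came from few cells. The Pla1a subset gave 131 of the 133 wildtype and 50 of the 52 knockout fibroblast UMIs. Of its cells 67 of 612 (10.9%, 8.59 to 13.7%) carried Ifnb1 in the wildtype and 42 of 1251 (3.36%, 2.43 to 4.51%) in the knockout library, with at most 14 and 2 UMIs in a cell, at median depths of 9279.5 and 7047 UMIs. In keratinocytes, 0.0535% and 0.0485% of cells did, at median depths of 4511 and 4528 UMIs. Of all macrophages and monocytes 6.20% (4.42 to 8.41%) carried Ifnb1 in the wildtype and 6.44% (4.92 to 8.24%) in the knockout library. Lyve1 macrophages gave 104 of 108 wildtype and 71 of 161 knockout macrophage UMIs, from 36 of 276 and 29 of 259 cells. In the Ccl8 subset 1 wildtype cell and 10 knockout cells carried it, with 1 and 23 UMIs. Cells marked by Il1b gave 3 and 1 UMIs, and the other knockout UMIs came from macrophages in no subset. The highest single macrophages gave 17 of the wildtype and 28 of the knockout UMIs.

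Most receptor genes differed by less than 0.5. Of 6 receptor genes 1 was lower in keratinocytes, Il10rb (19.1 and 12.9 CPM, -0.56), a subunit shared with interleukin-10, and none passed 0.5 in fibroblasts or macrophages. Ifnar1, a chain of the type I receptor, was at 18.6 and 16.6 CPM in keratinocytes, 52.9 and 69.3 CPM in fibroblasts and 81.9 and 60.7 CPM in macrophages (-0.17, 0.39 and -0.43). Ifngr2, a chain of the interferon-gamma receptor, was at 125 and 89.6 CPM in macrophages (-0.48, -0.67 to -0.29), 74.1 and 68.8 CPM in fibroblasts and 35.5 and 30.2 CPM in keratinocytes. Il10rb was at 49.1 and 64.7 CPM in fibroblasts (0.40, 0.26 to 0.54). Ifnar2 (22.8 and 20.2, 153 and 135, and 254 and 240 CPM) and Ifngr1 (116 and 107, 281 and 282, and 193 and 213 CPM) differed little in the same order of types. Ifnlr1, the receptor chain for the lambda interferons, was at 13.7 and 12.5 CPM in keratinocytes and at 1.01 CPM or less in the others.

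Irf3, which acts before interferon is made, was at 19.8 and 16.5 CPM in keratinocytes, 17.1 and 19.4 CPM in fibroblasts, and 16.3 CPM in wildtype macrophages (0.36). Of 7 negative regulators, Socs1 was lower in fibroblasts (66.4 and 36.2 CPM, -0.87) and Socs3 higher in macrophages (157 and 295 CPM, 0.91). The sensor regulator Dhx58 was lower in all 3 types (-0.71, -1.30 and -1.07), and in fibroblasts Trim25 was lower (-0.57) and Mavs, the adaptor of the RNA sensors, higher (0.59). Of 6 kinases and factors, Irf8 was lower in keratinocytes (-0.95) and Ikbke in macrophages (-0.90). Over all genes, 5.48% were lower and 2.71% higher in keratinocytes. In fibroblasts 7.04% were lower and 8.85% higher, and in macrophages 18.1% and 6.45%.

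Other interferon-induced genes, 29 of 30 listed, had medians below 0 in all 3 types. In fibroblasts 15 of 28 counted were lower and none higher, in macrophages 13 of 29 lower and 2 higher, and in keratinocytes 6 of 26 lower and 1 higher, with medians of -0.59, -0.48 and -0.29. Over all genes, 7.04%, 18.1% and 5.48% were lower and 8.85%, 6.45% and 2.71% higher in these types. Ifi27l2a stood at 706 and 323 CPM in fibroblasts (-1.13), and Lgals3bp, a secreted glycoprotein, at 1308 and 452 CPM in macrophages (-1.53). The higher ones were Ifi27 (39.3 and 72.5 CPM, 0.88) and Ifi203 (218 and 309 CPM, 0.50) in macrophages and Ifi203 (4.14 and 6.11 CPM, 0.56) in keratinocytes. Of 21 genes known best for interferon-gamma, 9 were lower in fibroblasts, where 7.04% of all genes were, 7 in macrophages, where 18.1% were, and 10 in keratinocytes, where 5.48% were, with Ciita, the master factor of MHC class II, higher in macrophages (24.6 and 62.2 CPM, 1.34). In keratinocytes the GTPase Iigp1 stood at 7.54 and 1.12 CPM (-2.72), and the T cell chemokines Cxcl9 at 33.2 and 14.7 CPM (-1.18) and Cxcl10 at 140 and 71.5 CPM (-0.97). Fibroblast Cxcl9 stood at 34.1 and 6.61 CPM (-2.36), and macrophage Cxcl9 went the other way at 40.7 and 55.6 CPM (0.45, 0.17 to 0.73).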

How the data were processed

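The authors dissociated the skin enzymatically, fixed the cells and hybridised them with the mouse whole transcriptome probe set. They deposited count matrices (UMIs per gene and cell, not normalized) made with Cell Ranger on mm10 (GRCm38), per the labels' processing notes. The version, 8.0.1, was taken from the matrices. A gene without a probe cannot be counted, and probes differ in efficiency. Cells outside 200 to 45000 UMIs or 100 to 7500 genes, or with a mitochondrial share over 10%, were left out. A cell was given the type with the highest mean scaled marker score. At least 3 of its markers had to be detected, and the score had to lead the second type by 1.5 times. Stages also needed 3 markers, with a lead of 1.2 times. Subsets needed a lead of 1.2 times as well, but any detected marker of the subset was enough. This scoring rule was set after the data were seen. No doublet caller was run; the lead over the second type and the upper UMI limit stand in for it. UMIs were summed per type and library and divided by all non-mitochondrial UMIs of those cells (CPM). The log2 ratio of knockout over wildtype used 0.5 added UMI, genes with at least 50 UMIs over both libraries, a limit of 0.5 and exact conditional 95% intervals. Where a library had 3 UMIs or fewer no fold was given. All 29 members are accounted for, and those with 50 UMIs in a main type are named with values. So are ligands with 50 UMIs in a main type, Ifng, the receptors and Irf3. Other pathway genes past 0.5 in keratinocytes or fibroblasts are named where their list is short, and long lists are summarised. The members and lists were chosen with earlier results of these data known. The ratios were tested on simulated counts. Alternatives varied the gate, cell filter, scaling (TMM of edgeR 4.0.16 in R 4.3.3), cell weight, depth, shared droplets, pseudocount, count minimum and subset or stage mix. Python 3.11.15, numpy 2.4.6, scipy 1.17.1, pandas 2.3.3 and matplotlib 3.10.9 were used.
One named item is not reported here.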

Additional observations from a re-analysis of the deposited data

Results flagged for a closer look

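The summed level of the members was higher in the knockout library in 4 groups of cells while it was lower in others under the same contrast. Mast cells had a log2 ratio of 0.53 and Langerhans and dendritic cells of 0.52, whereas keratinocytes, fibroblasts, macrophages and sebocytes were below 0. Without Irf1 and Ifitm3 the Langerhans and dendritic sums were 495 CPM in wildtype and 512 CPM in knockout skin (0.05, -0.31 to 0.40). The sebocyte ratio was -0.43, and 0.08 with no cell filter. Among fibroblasts the Cpz subset had a ratio of 0.28, whereas the Pla1a and Angpt4 subsets were below 0. That of the Cpz subset lay in Irf1 and Ifitm3, and without them its sums were 657 CPM in wildtype and 655 CPM in knockout skin. Among macrophages the Ccl8 subset had a ratio of 0.42, whereas the Lyve1 subset and the cells marked by Il1b were below 0. With 1 library per genotype none of these differences between groups was tested.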

How the results depend on the processing

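Other settings were applied to member ratios in the 3 main types and to sums and medians by type, stage and subset. Of these, the 68 log2 ratios past 0.5 kept their sign in all 941 values under other settings. Ratios of single members in stages, subsets and small types, and ratios of pathway genes, were not among them. Of the 46 smaller ratios 18 took the other sign under at least 1 setting, among them keratinocyte Rsad2 (0.25, from -0.30 with no cell filter to 1.11 with a stricter gate) and Oasl1 (0.28, and -1.11 with cells weighted alike). No paired analysis was possible because each genotype had 1 library. With 1 mouse per genotype, counting intervals leave out the spread between mice, and at 3 UMIs or fewer no member ratio was given. The summed log2 ratio of keratinocytes was -0.11 with a stricter gate, -0.21 with no cell filter, -0.13 centred on all genes and -0.10 with cells weighted alike. That of fibroblasts was -0.73 with a stricter gate, -0.76 with TMM factors, -0.77 centred, -0.49 with cells weighted alike, -0.51 thinned, -0.61 without the deepest cells, -0.75 without shared droplet barcodes and -0.80 with subset shares fixed (chosen after the data were seen). That of macrophages was, in this order, -0.80, -0.66, -0.65, -0.61, -0.64, -0.73, -0.75 and -0.63. The fibroblast median was -0.72 with cells weighted alike and -0.71 thinned. In keratinocytes 1 member was higher with a stricter gate, with cells weighted alike or with stage shares fixed, and 7 members were lower with a stricter gate and 6 thinned. In macrophages 0 were higher with cells weighted alike or thinned. The share of cells with at least 5 members went, without thinning, to 7.17% and 4.90% of keratinocytes (wildtype and knockout), 62.9% and 65.2% of fibroblasts and 85.2% and 76.2% of macrophages, and at 4000 UMIs to 3.85% and 2.13%, 59.4% and 59.5%, and 84.3% and 79.9%. The cause of these shifts was not tested.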
